A study of Mus musculus with 120 samples.

Results

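The antiproliferative genes described here are 9 mouse genes that slow or stop the cell cycle: the cyclin G genes Ccng1 and Ccng2, the BTG/TOB genes Btg1, Btg2 and Tob1, the growth arrest genes Gadd45a, Gadd45b and Gadd45g, and the retinoblastoma gene Rb1. Every probe set that the array annotation assigns to one of these symbols alone was taken, which gave 19 of 45101 probe sets on the Mouse 430_2 array. The smaller Mouse 430A_2 array, used for Runx1, holds 16 such probe sets among 22690. A gene with several probe sets is represented by its reference probe set, the one with the highest mean over the uninduced Mouse 430_2 arrays, and the others are given beside it.

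The study overexpressed genes of human chromosome 21, or their mouse orthologs, in mouse embryonic stem (mES) cells and profiled the clones before and after induction on Affymetrix arrays. It comprised 20 overexpression experiments and 120 arrays, with 3 clones of each experiment measured in both states. The series design reads the same 3 clones before and after induction, so each result below is an induced minus uninduced difference in log2, paired by replicate number.

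All clones came from the EB3 line, in which a tetracycline-repressed (Tet-off) cassette sits in the ubiquitously active ROSA26 locus. Each carried 1 coding sequence with a 3xFLAG tag at its carboxyl terminus, the human one for Zfp295, Dyrk1a and Snf1lk and the mouse one for the remaining experiments. The cells were grown in serum with leukemia inhibitory factor (LIF). The Zfp295 and Hunk clones were kept in a higher dose of puromycin than that used for selection, to lessen differences between their clones. Uninduced cells stayed in tetracycline (Tc), and induced cells were replated and kept without Tc. The titles give 24 hours of induction for Bach1, Dscr1, Dyrk1a, Erg, Ets2, Gabpa, Nrip1, Olig1, Olig2, Pfkl, Pknox1, RIKEN-1810007M14, Runx1, Snf1lk and Zfp295, 39 hours for Hunk, Ripk4 and Sim2, and 48 hours for Aire and Pdxk. For Pfkl the study's table of time points lists 39 hours instead, and the titles were followed here. Within an experiment the transgene, the loss of Tc, replating and the time in culture cannot be told apart, and no arrays of clones without a transgene were used here as a control for the loss of Tc.

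Cyclin G1 and cyclin G2 are unusual cyclins that go with slowed rather than advancing cycles. Ccng1 is a classical target of p53, and Ccng2 is a target of FoxO factors in cells deprived of growth signals. BTG and TOB proteins bind the CCR4-NOT deadenylase and shorten mRNA tails, GADD45 proteins are small stress-induced partners of kinases and cell cycle proteins, and RB1 holds E2F factors in check. Mouse ES cells in LIF cycle fast with a short G1 phase, and RB is held largely inactive in them.

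The cells had the pluripotency markers of their label. All 12 of the pluripotent cell markers examined lay above the upper quartile of every uninduced Mouse 430_2 array, whereas 0 of 8 fibroblast markers did and 6 of them lay below the array median on most of these arrays. Of the other lists 2 of 8 primitive endoderm, 2 of 5 mesoderm, 2 of 7 neural and 4 of 6 trophoblast markers lay below it on most arrays. None of the markers of these lists lay above the upper quartile of every array, but the lists were not low throughout. The mean level of the primitive endoderm markers ran from -0.45 to 4.14 (log2 above the array median) over the uninduced arrays. Averaged by experiment its highest uninduced value was 1.88, in Pknox1. The array medians of the Mouse 430_2 arrays spanned 4.89 to 5.68, because every experiment had been normalised apart, but differed by at most 0.0877 within an experiment. Of 50 probe sets of the overexpressed genes 2 passed higher in their own experiment, both in Runx1, and in 5 of 20 experiments a transgene probe set was higher in all 3 clones. The mean was lower for 29 of the 50, of which 11 were lower in all 3 clones and 0 passed in limma. They include all 3 Pknox1 probe sets in the Pknox1 experiment (-1.47, -1.21 and -1.45), the direction opposite to its label, none of which passed. The 6 Nrip1 probe sets in Nrip1 were lower on average (-0.59 to 0.00). The study cloned coding sequences without untranslated regions, measured induction by quantitative PCR and saw the tagged Pknox1 protein on western blots. Where the probe sets of the array lie relative to these sequences was not examined, so they do not settle the check of the labels. In the Gabpa experiment the uninduced and induced arrays of clone 2 deviated from their group means in opposite directions (r = -0.18). The calls of that experiment and its Ccng2 difference are given below with and without that clone, and its other differences over all 3 clones.

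Over the 20 experiments 32 of the 377 member tests passed, 28 of them higher and 4 lower (limma with the clone as a block, adjusted p under 0.05 over all probe sets). Over all probe sets 1.39% of tests passed, 0.732% higher and 0.66% lower. The calls lay in 5 experiments, and every member had at least 1 of them. All 32 moved the same way in all 3 clones, and in 25 the 3 induced arrays did not overlap the 3 uninduced ones. Groups that did not overlap made up 11.4% of all tests and 61 of the 377 member tests.

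Runx1 and Erg, both at 24 hours, called 10 member probe sets each. With Runx1 9 rose and 1 fell of 16, against 16.2% of all probe sets called in that experiment (8.51% higher, 7.65% lower). With Erg 8 rose and 2 fell of 19, against 12% (5.71% higher, 6.28% lower). Aire called 5 higher and 1 lower of 19 (3.93% of all, 2.45% higher and 1.48% lower). Sim2 called 4 higher (0.914% of all, 0.643% higher and 0.271% lower) and Pdxk 2 higher (0.264% of all, 0.231% higher and 0.0333% lower). The other 15 experiments called no member in limma, where 50 of 285 member tests had an unadjusted p under 0.05, against 6.78% of all tests. The most were in Hunk, 11 of 19 against 9.44% of all. The share of all probe sets called at an adjusted p under 0.05 was 1.76% in Olig2, 0.135% in Nrip1, 0.0177% in Ripk4, 0.00665% in Hunk, 0.00222% in Bach1 and 0% in the rest.

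**Figure D1:**
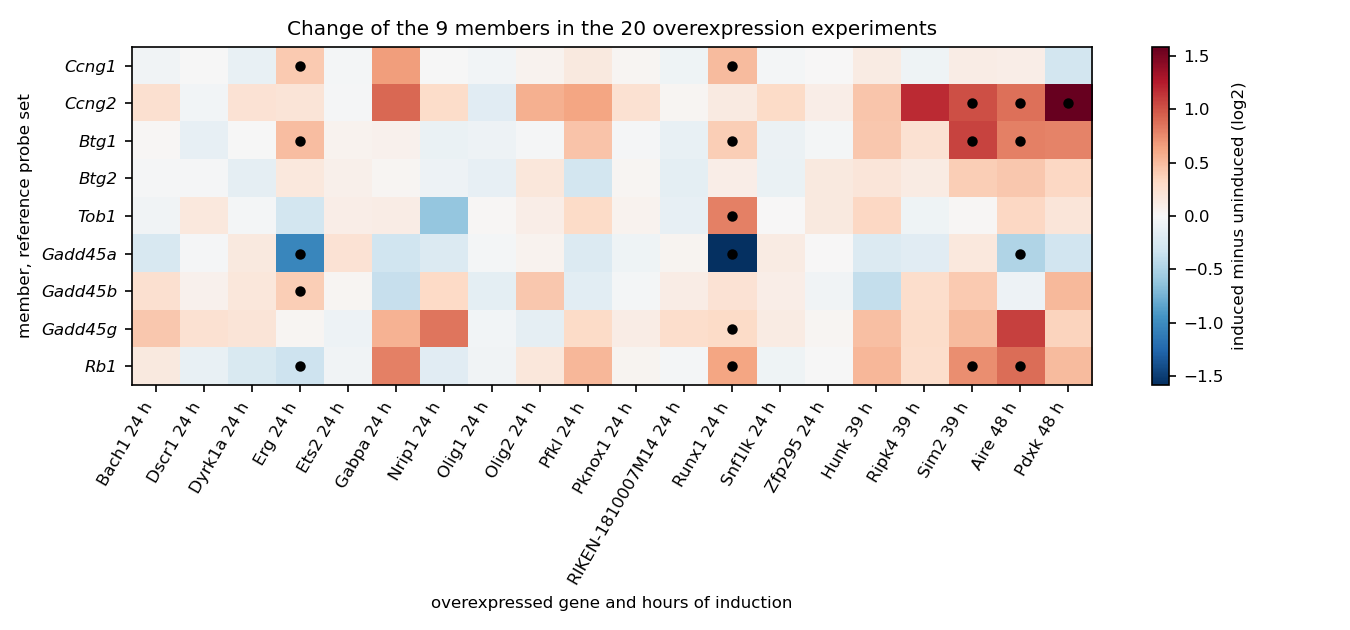
Induced minus uninduced difference (log2, colour) of the reference probe set of each member (rows) in each of the 20 experiments (columns, ordered by hours of induction); black points mark differences that passed the test. Red cells gather in the rows of Ccng2, Btg1 and Rb1 at 39 and 48 hours, and the deepest blue cells are Gadd45a with Runx1 (-1.58) and Erg (-1.04).

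The calls depended on pairing the clones. Without the block Erg had 4 called member probe sets (8.56% of all) and Runx1 8 (13.7%). Aire, Sim2 and Pdxk then had 0, in experiments that called 0.0111%, 0.104% and 0% of all. Leaving out 1 clone also moved the counts, together with those over the whole array. Without clone 2 Pdxk called 15 of 19 member probe sets and 4995 of all (11.1%), and without clone 1 it called 0 and 9 (0.02%). Sim2 without clone 2 called 0 members and 0% of all. Aire called between 3 (without clone 3, 0.244% of all) and 10 (without clone 2, 4.49%). Erg called 4 without clone 3 (5.34%) and Runx1 6 without clone 2 (9.5%). Gabpa, with 0 calls over 3 clones, called 3 member probe sets and 1959 of all (4.34%) without clone 2, the members being both of Ccng2 and the reference of Ccng1. Hunk, also with 0, called 3 without clone 3, with 268 of all (0.594%). The study lists the Sim2 clones in another order before and after induction, and with clones 1 and 2 crossed none of the Sim2 calls of Ccng2, Btg1 and Rb1 passed (limma adjusted p = 0.0986, 0.0848 and 0.119 for the reference probe sets).

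Ccng1, the p53-responsive cyclin G, rose with Runx1 and with Erg. In the Runx1 experiment its reference probe set read 12.22, 11.90 and 12.13 (log2) in the uninduced clones and 12.67, 12.45 and 12.63 in the same clones after induction. All 3 induced arrays were above all 3 uninduced ones, by 0.50 ± 0.06 (SE, n = 3 clones, limma adjusted p = 0.00551), a 1.41-fold rise. The other Ccng1 probe sets rose by 0.40 and 0.66 there.

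In the Erg experiment Ccng1 went from 11.23, 10.74 and 11.29 to 11.60, 11.18 and 11.74. The groups overlapped because clone 2 started low, yet each clone rose by 0.37 to 0.45, for a mean of 0.42 ± 0.08 (limma adjusted p = 0.0123). The unpaired fit did not call it (adjusted p = 0.231). The other 2 probe sets rose by 0.45 and 0.61. With Gabpa the reference probe set was higher in all 3 clones by 0.66, the largest difference of that probe set in the series, and did not pass (limma adjusted p = 0.213). In Pdxk its difference was -0.29 without passing (adjusted p = 0.191). Its mean difference over the experiments was 0.07 at 24 hours and 0.00 at the later times.

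Ccng2, the FoxO-responsive cyclin G, had the largest called rise of any member. In the Pdxk experiment it read 6.19, 8.58 and 7.51 in the uninduced clones and 8.45, 9.48 and 9.10 after 48 hours. The groups overlapped since clone 2 started above the induced value of clone 1, but clone by clone the rises were 2.26, 0.90 and 1.58, a mean of 1.58 ± 0.21 (limma adjusted p = 0.0403) or 2.99-fold. Its other probe set rose by 1.40 (limma adjusted p = 0.0276).

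With Sim2 the Ccng2 reference went from 8.17, 7.57 and 8.09 to 8.82, 8.83 and 9.24, with no overlap and a rise of 1.02 ± 0.14 (limma adjusted p = 0.0426). With Aire it went from 7.02, 7.33 and 7.46 to 7.87, 7.96 and 8.57, again with no overlap, by 0.87 ± 0.10 (limma adjusted p = 0.00537). All calls of Ccng2 were thus made at 39 or 48 hours. With Runx1 and Erg, where most other members moved, it was higher by 0.14 and 0.20 and did not pass (adjusted p = 0.38 and 0.202).

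The direction of Ccng2 was shared more widely than its calls. Its reference probe set was higher on average in 17 of 20 experiments and higher in all 3 clones in 13, against 14.7% of all probe sets and experiments. It was lower in all 3 clones in 1 experiment, Olig1. In Ripk4, without a call (limma adjusted p = 0.635), Ccng2 went from 5.93 to 8.35 in clone 2, and from 8.67 to 9.21 and 9.03 to 9.61 in clones 1 and 3, whose uninduced values were already above the induced value of clone 2. In Gabpa the differences were 2.39 and 1.72 in clones 1 and 3 and -1.36 in clone 2. Without clone 2, singled out after its values were seen, the difference was 2.05. Without clone 1 or clone 3 Gabpa called 0 member probe sets.

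Btg1, an inhibitor of proliferation that acts through CCR4-NOT, rose in 4 experiments. With Sim2 it read 9.69, 9.74 and 10.08 uninduced and 10.77, 10.86 and 11.09 induced. The clones rose by 1.08, 1.11 and 1.01, so the spread between clones was a small part of the mean rise of 1.07 ± 0.10 (limma adjusted p = 0.0327), or 2.1-fold. The second bright probe set rose by 0.74 in the same experiment.

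With Aire Btg1 rose from 9.58, 9.59 and 9.70 to 10.45, 10.23 and 10.56, by 0.79 ± 0.08 (limma adjusted p = 0.00391). With Erg it rose from 9.26, 8.86 and 9.10 to 9.67, 9.42 and 9.59, by 0.49 ± 0.08 (limma adjusted p = 0.00736), and with Runx1 by 0.39 ± 0.07 (limma adjusted p = 0.0221). The groups did not overlap in any of these. Erg and Runx1 are the experiments where the unpaired fit called Btg1 as well.

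Btg1 in Pdxk and Ripk4 repeated the split between clones that Ccng2 had. In Pdxk (limma adjusted p = 0.141) clones 1 and 3 differed by 1.13 and 1.20 and clone 2, at 11.31 before induction, by 0.03. In Ripk4 (limma adjusted p = 0.791) clones 1 and 3 stood at 11.32 and 11.31 before induction and differed by -0.13 and 0.02, and clone 2 went from 9.53 to 10.36. Clones with an uninduced Btg1 value above 11 were these 3 alone in the late experiments. Without clone 2, singled out after its values were seen, the Pdxk difference was 1.16. Without clone 1 or clone 3 Pdxk called 0 member probe sets.

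Btg2, a p53 target of the same family, passed through its second probe set only. That probe set rose with Erg from 8.58, 8.18 and 8.57 to 9.26, 8.62 and 9.07, by 0.54 ± 0.09 (limma adjusted p = 0.00618), and with Runx1 from 8.69, 8.70 and 8.99 to 9.15, 9.08 and 9.45, by 0.44 ± 0.06 (limma adjusted p = 0.00837). Its reference probe set was higher by 0.17 and 0.10 in the same experiments and did not pass (adjusted p = 0.231 and 0.628). The Btg2 probe sets therefore differ in call although both were higher.

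Tob1, another partner of the deadenylase, was called in Runx1 alone. It read 9.89, 9.91 and 9.91 uninduced and 10.86, 10.74 and 10.53 induced, with no overlap and a rise of 0.80 ± 0.08 (limma adjusted p = 0.00317) or 1.75-fold. With Nrip1 it was lower in all 3 clones, at -0.61, and did not pass (limma adjusted p = 0.134). Its profile over the experiments was unlike that of Btg1 (Pearson r = 0.32 over 19 mean differences).

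Gadd45a, the GADD45 gene induced by DNA damage, was the only member with falls in several experiments. In Runx1 it stood at 10.19, 10.18 and 10.17 before induction and at 8.60, 8.53 and 8.65 after it. The drop of -1.58 ± 0.06 (limma adjusted p = 0.000265) left 0.333 of the uninduced level, and the groups lay far apart. In Erg it fell from 9.39, 9.26 and 9.34 to 8.36, 8.32 and 8.19, by -1.04 ± 0.08 (limma adjusted p = 0.000317).

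A smaller fall of Gadd45a was called in Aire, from 9.55, 9.91 and 10 to 9.09, 9.40 and 9.54, or -0.48 ± 0.07 (limma adjusted p = 0.0134), with groups that did not overlap. The array carries 1 probe set for the gene, so no second probe set bears on these falls. The falls with Runx1 and Erg remained called in the unpaired fit (adjusted p = 1.31e-05 and 0.000246). In the experiments that called Ccng1 higher, Runx1 and Erg, Gadd45a thus went the other way.

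**Figure D2:**
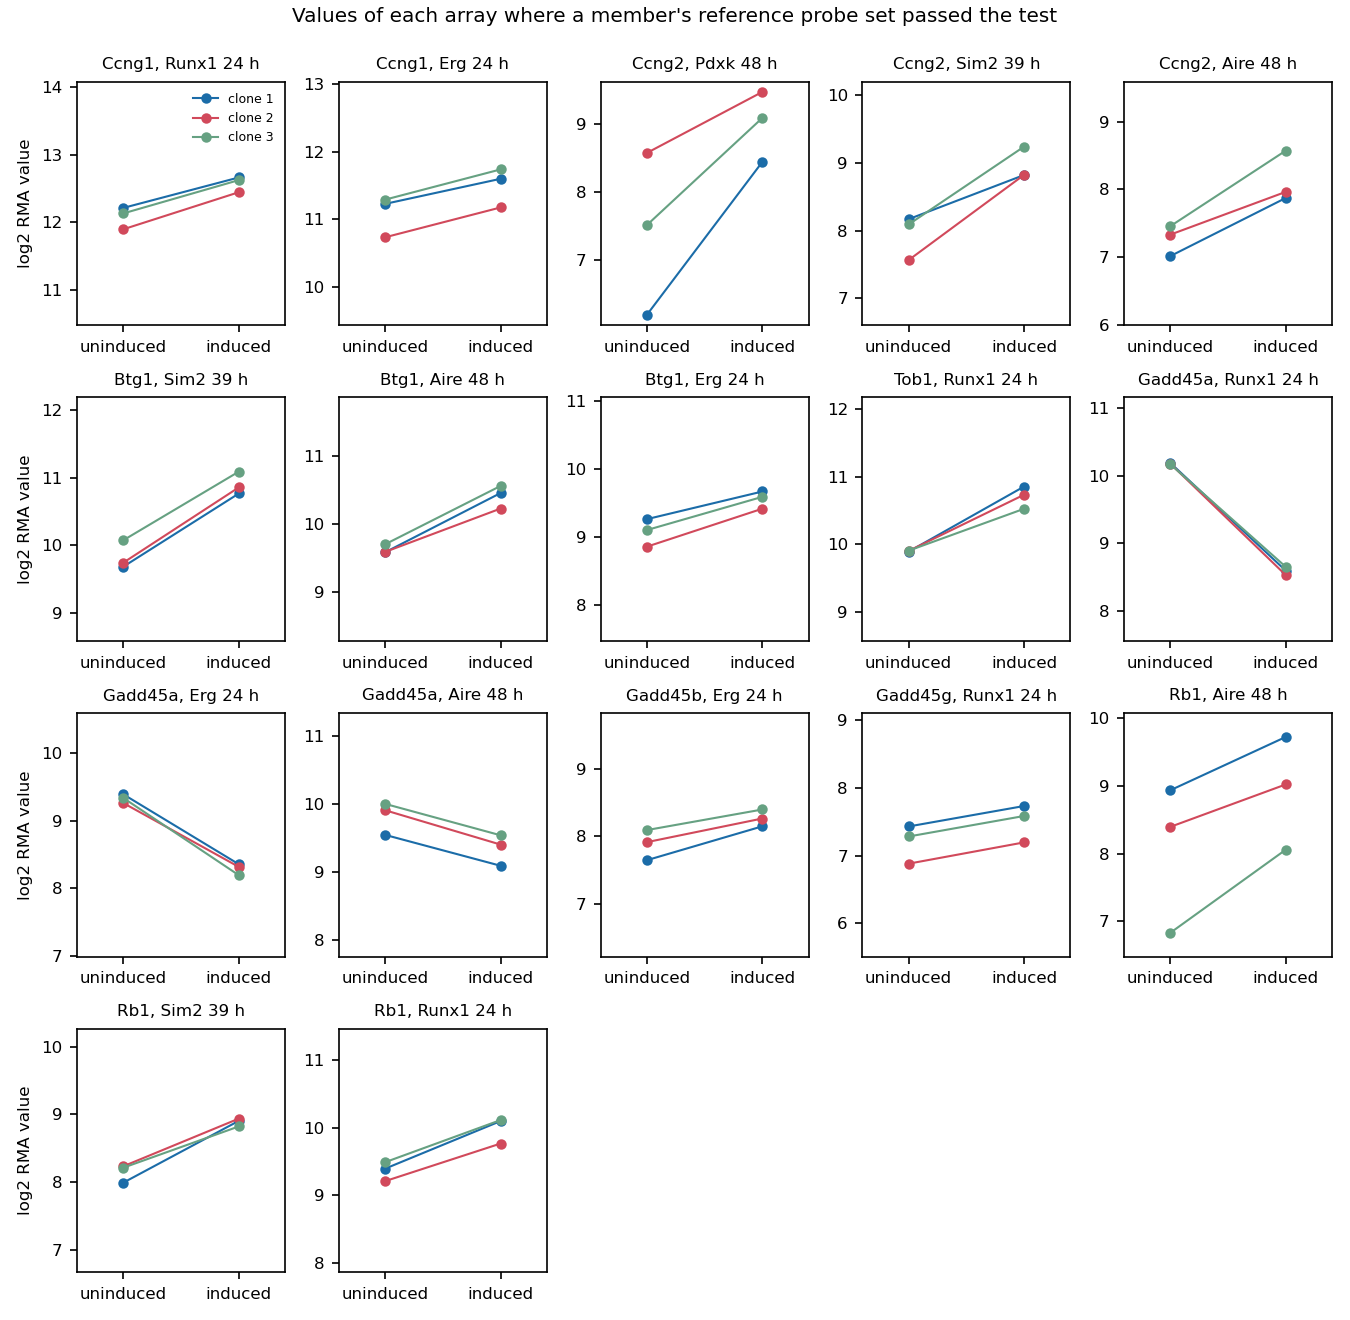
Log2 value of each array for the reference probe sets of members that passed the test, up to 3 experiments per member by size of change; each line joins the uninduced and induced array of 1 clone, and every panel spans 3.6 log2 units. The 3 clones of Gadd45a with Runx1 fell together from about 10.2 to 8.6, while those of Ccng2 with Pdxk started between 6.19 and 8.58.

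Gadd45b, which responds to cytokines and stress, rose in Erg from 7.65, 7.91 and 8.09 to 8.15, 8.26 and 8.40, by 0.38 ± 0.08 (limma adjusted p = 0.0224). A second probe set rose there by 0.64 ± 0.08 (limma adjusted p = 0.00202). Its difference was -0.38 in Hunk and -0.36 in Gabpa, lower in all 3 clones of each, and 0.51 in Pdxk, none of which passed (adjusted p = 0.218, 0.282 and 0.109).

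Gadd45g, the third GADD45 gene, passed in Runx1, where each clone rose by 0.30 or 0.31. Its values went from 7.43, 6.88 and 7.28 to 7.74, 7.20 and 7.59, a rise of 0.31 ± 0.06 (limma adjusted p = 0.023) against overlapping groups. Larger differences did not pass: 1.09 in Aire (adjusted p = 0.0527), where clones 2 and 3 differed by 1.42 and 1.74 and clone 1 by 0.11, and 0.85 in Nrip1 (adjusted p = 0.0555), whose groups did not overlap. Gadd45g was higher on average in 17 of 20 experiments and in all 3 clones in 12, against 14.7% of all probe sets and experiments.

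Rb1, which encodes the retinoblastoma protein, rose in 3 experiments and fell in 1. With Aire it went from 8.94, 8.39 and 6.83 to 9.72, 9.02 and 8.06. Clone 3 stood far below the others in both states, so the groups overlapped while the clones rose by 0.79, 0.63 and 1.23, a mean of 0.88 ± 0.11 (limma adjusted p = 0.00844).

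With Sim2 Rb1 rose from 7.99, 8.23 and 8.21 to 8.90, 8.94 and 8.82, by 0.74 ± 0.11 (limma adjusted p = 0.0457), and with Runx1 from 9.40, 9.21 and 9.49 to 10.10, 9.77 and 10.11, by 0.63 ± 0.06 (limma adjusted p = 0.00292). Neither pair of groups overlapped. With Erg it fell by 0.33 ± 0.08 (limma adjusted p = 0.043) with overlapping groups. The Rb1 difference in Gabpa was 0.80, its highest at 24 hours, and was not called. The dim second probe set of Rb1, at a mean of 4.77, hardly followed the reference (r = 0.12 over 19 mean differences) and stood at 0.09 in Erg and -0.26 in Sim2, the opposite of the calls.

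The responses of the members depended on the experiment. A moderated F-test over the 19 Mouse 430_2 experiments called 12 of 19 member probe sets, against 16.2% of all (limma adjusted p under 0.05). The highest F values were those of Gadd45a (8.16, adjusted p = 6.12e-07), Rb1 (7.04, adjusted p = 3.77e-06), Btg1 (6.0, adjusted p = 2.36e-05) and Ccng1 (5.75, adjusted p = 3.85e-05). Tob1, Gadd45b and Gadd45g passed through their reference probe sets as well and Ccng2 through its second. Neither Btg2 probe set passed (adjusted p = 0.433 and 0.0807). Without clone 3 the count fell to 2 and without clone 1 to 7, while it was 8 without Erg and 13 without Gabpa.

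A response common to the experiments was not established for any member. Over the 19 experiments, each taken as 1 mean difference, limma called 0 of 19 member probe sets (0.0554% of all probe sets), while 10 of 19 had an unadjusted p under 0.05 against 13.4% of all. The nearest were Ccng2 at 0.45 ± 0.10 (adjusted p = 0.071, higher in 16 of 19 experiments) and Gadd45g at 0.30 ± 0.07 (adjusted p = 0.073, higher in 16 of 19). In the 14 experiments at 24 hours 0 member probe sets passed as well (0.00443% of all). The Ccng2 mean was 0.31 over the 13 experiments that the study groups as silent (adjusted p = 0.39). With Runx1 added on the shared probe sets 2 member probe sets passed, and with each clone as a value and the experiment as a random block 6 did.

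Ccng2, Btg1, Btg2 and Rb1 were higher in the experiments with more hours of induction. The 5 experiments at 39 or 48 hours were set against the 14 Mouse 430_2 experiments at 24 hours, with 1 mean difference per experiment. Of 19 member probe sets 6 were higher at the later times and 0 lower, against 3.51% higher and 2.21% lower, 5.73% in all, of all probe sets (limma adjusted p under 0.05). For 0 of the 19 did the late experiments lie clear of those at 24 hours, as they did for 0.647% of all.

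Ccng2 was 1.02 higher after induction on average in the late experiments and 0.25 higher in those at 24 hours, a difference of 0.77 ± 0.15 (limma adjusted p = 0.00551). The late values ran from 0.43 to 1.58 and those at 24 hours from -0.18 to 0.92, so that 3 of the 14 reached above the lowest late experiment. The value of 0.92 is that of Gabpa, whose clone 2 went the other way. Without clone 2 the Gabpa difference was 2.05, above every late experiment, and 1.25 for the second probe set. Its second probe set differed by 0.74 ± 0.12 (limma adjusted p = 0.00131).

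For Btg1 the late mean was 0.66 and the mean at 24 hours 0.04, a difference of 0.63 ± 0.11 (limma adjusted p = 0.00235), with 0.48 for the second probe set (adjusted p = 0.0195). For Rb1 the means were 0.59 and 0.04 and the difference 0.54 ± 0.13 (limma adjusted p = 0.0207), while its dim second probe set differed by -0.11 and was higher in 2 of the 5 late experiments. For Btg2 they were 0.29 and -0.02, and the difference 0.31 ± 0.07 (limma adjusted p = 0.00966), with 0.26 for the second probe set, which did not pass (adjusted p = 0.0772). On its reference probe set each of these members was higher in all 5 late experiments. For each of them some experiment at 24 hours overlapped the late ones, for Rb1 up to 0.80 in Gabpa.

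**Figure D3:**
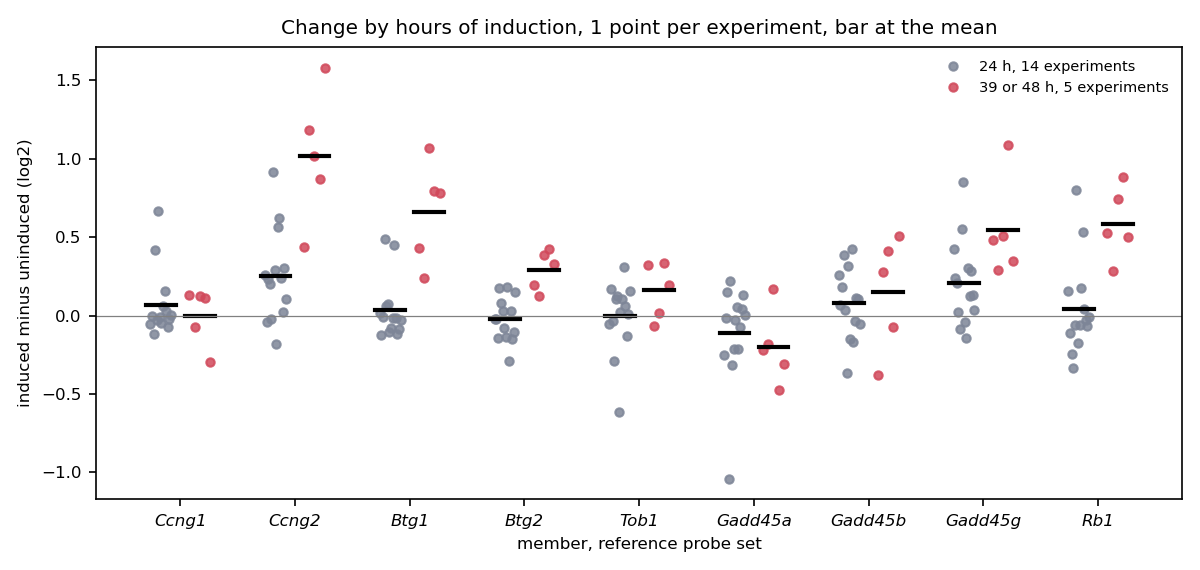
Induced minus uninduced difference (log2) of each member's reference probe set, with 1 point per experiment, the 14 experiments at 24 hours in grey and the 5 at 39 or 48 hours in red, and a black bar at each mean. The late points of Ccng2, Btg1, Btg2, Gadd45g and Rb1 lie above 0 in every experiment, and those of Ccng1, Gadd45a and Gadd45b spread around the points at 24 hours.

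The remaining members did not pass in this contrast: Ccng1 at -0.07 (limma adjusted p = 0.79), Tob1 at 0.17 (adjusted p = 0.426), Gadd45a at -0.09 (adjusted p = 0.798), Gadd45b at 0.07 (adjusted p = 0.842) and Gadd45g at 0.34 (adjusted p = 0.154). Among these Gadd45g was also higher in all 5 late experiments, from 0.29 to 1.09. The hours and the transgene cannot be told apart, since no gene was profiled at more than one time. Among the experiments the study calls silent, where only Hunk and Ripk4 are late, no member passed and the Ccng2 difference was 0.59 (adjusted p = 0.564). The Btg2 difference was not called with Pfkl counted as late (0.20, adjusted p = 0.16), without clone 1 (0.14, adjusted p = 0.377) or without Sim2 (adjusted p = 0.0508).

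The Rb1 difference was not called without Sim2 (limma adjusted p = 0.0915), Aire (adjusted p = 0.077) or Pdxk (adjusted p = 0.0535), nor without clone 1 (adjusted p = 0.058) or clone 2 (adjusted p = 0.0764). The second Btg1 probe set was not called without any one of those experiments either (adjusted p = 0.0967, 0.0572 and 0.0785), nor without clone 2 (adjusted p = 0.111) or clone 3 (adjusted p = 0.0581) or with the median of the clones (adjusted p = 0.0799). The Ccng2 reference was not called without clone 2 (0.61, adjusted p = 0.236) or with the median of the clones (0.63, adjusted p = 0.103). The reference of Btg1 and the second Ccng2 probe set were called in each of these alternatives except the silent experiments.

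**Figure D4:**
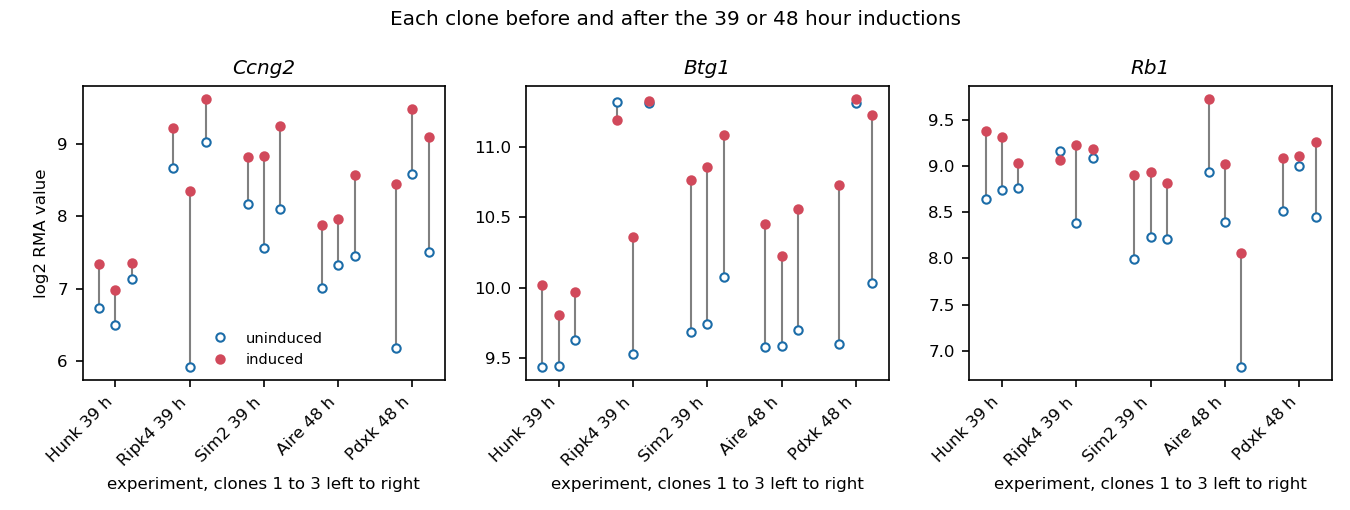
Log2 values of Ccng2, Btg1 and Rb1 in the 5 experiments at 39 or 48 hours, with clones 1 to 3 from left to right in each experiment, open circles for uninduced and filled circles for induced arrays of the same clone. Ccng2 was higher after induction in every clone, and the clones with Btg1 above 11 before induction, Ripk4 clones 1 and 3 and Pdxk clone 2, hardly moved.

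Before induction the members also differed between experiments, most of all Ccng2 and Gadd45g. As the experiments were normalised apart, these levels are given above the median of their own array and carry no test. Ccng2 lay 0.37 ± 0.07 (SD, n = 3) above the array median in Erg and 3.47 ± 0.16 in RIKEN-1810007M14, with a median of 1.6 over the 19 experiments. Next to the lowest came Ets2 at 0.64 ± 1.12 and next to the highest Bach1 at 3.13 ± 0.42, and neither differed from its neighbour beyond the spread of clones.

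Gadd45g ranged from 0.18 ± 0.22 in Bach1 to 2.42 ± 0.58 in Zfp295, with Hunk at 2.41 beside the latter and Dscr1 at 0.47 ± 0.30 beside the former, again within the spread of clones. The levels of Ccng1 ran from 5.39 in Sim2 to 6.35 in Olig1 and those of Tob1 from 3.81 in Pfkl to 4.89 in Pdxk. The range over experiments was 3.10 for Ccng2 and 2.24 for Gadd45g and lay between 0.96 and 1.64 for the others.

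**Figure D5:**
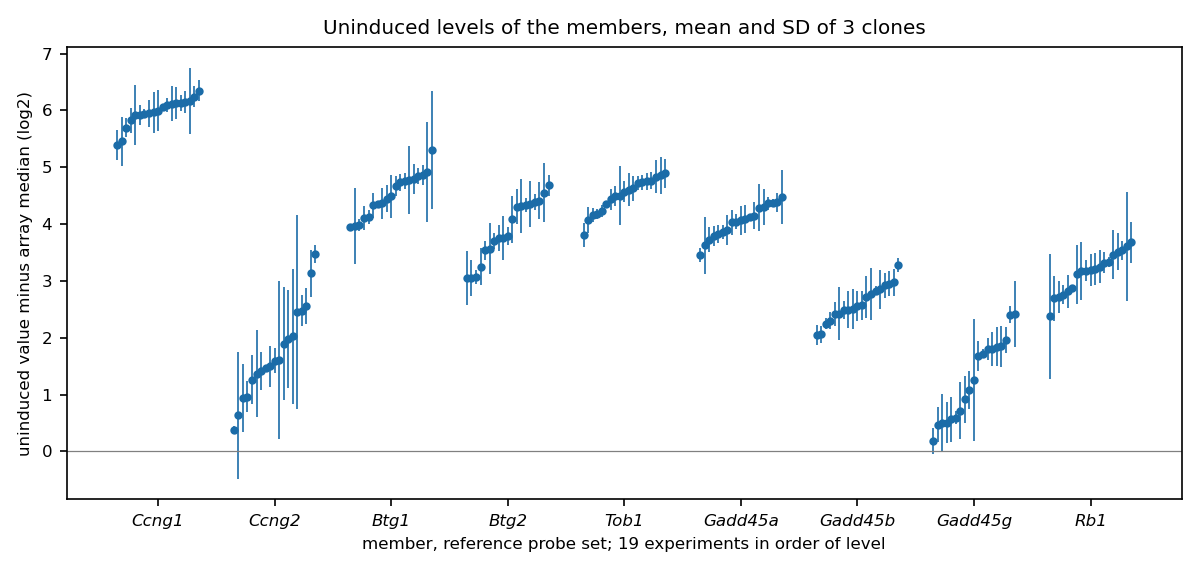
Uninduced log2 value minus the array median for each member's reference probe set, 1 point per Mouse 430_2 experiment in order of level, with bars for the SD of 3 clones. Ccng2 and Gadd45g spread over 3.10 and 2.24 log2 units, wider than the other members.

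Across the 19 mean differences Ccng2 followed Rb1 (Pearson r = 0.73) and Btg1 (r = 0.70), Btg1 followed Btg2 (r = 0.70) and Rb1 (r = 0.68), and Ccng1 ran against Gadd45a (r = -0.48). These describe 19 points that share arrays and handling between the genes. Of the 11731 other genes compared, the profile most like that of Ccng2 was Clcn3, a chloride transporter of endosomes (r = 0.92), with Tbl2 (r = 0.91) and Fbxo25 (r = 0.89) next. Those most like Btg1 were Idh1, a cytosolic isocitrate dehydrogenase (r = 0.94), Arnt, the partner of hypoxia-inducible factors (r = 0.94), and Grn, which encodes progranulin (r = 0.93).

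For Rb1 the nearest were Cpt1c (r = 0.91), Gaa, the lysosomal glucosidase (r = 0.90), and Cspp1 (r = 0.89), and for Ccng1 Map3k20, a stress-activated kinase (r = 0.87), Tanc1 (r = 0.86) and Tmtc3 (r = 0.85). Tob1 was nearest to Zfp42 (r = 0.83), Nphs1 (r = 0.83) and Klf4 (r = 0.82), of which Zfp42 and Klf4 are pluripotency factors. Runx1, the only experiment that called Tob1, is not part of these profiles. There Tob1 rose (0.80) while Klf4 (-0.82) and Zfp42 (-0.42) fell. Gadd45b was nearest to Maff, a small Maf factor (r = 0.83), Ndrg1 (r = 0.82) and Prrg2 (r = 0.82). Gadd45a was nearest to Mtfr1l (r = 0.88), Gnpnat1 and the adenylate cyclase gene Adcy2 (both r = 0.85). Gadd45g was nearest to Lzts2 (r = 0.89), Trim13 and the receptor kinase gene Tek (both r = 0.85), and Btg2 to Fcho2 (r = 0.83), Ube2b (r = 0.81) and Slc25a30 (r = 0.80).

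Other genes of the p53 pathway rose in the experiments that called Ccng1. With Erg 9 of 23 measured genes of that list rose and 0 fell, led by the apoptosis genes Pmaip1 (1.02, limma adjusted p = 0.000347) and Perp (0.92, adjusted p = 0.00143). With Runx1 7 of 21 rose and 0 fell, led by the CDK inhibitor Cdkn1a (0.93, limma adjusted p = 0.00313) and Bbc3 (0.74, adjusted p = 0.00179). With Aire 7 of 23 rose and 0 fell, led by Cdkn1a (0.68, adjusted p = 0.0155) and Trp53inp1 (0.67, adjusted p = 0.00806), without a call for Ccng1. With Pdxk and Sim2 1 gene rose each, and in the late contrast 2 were higher and 1 lower. With Olig2 Pmaip1 fell by 0.99. In Erg, Runx1 and Aire the medians of the list were 0.27, 0.27 and 0.21 against -0.01, -0.03 and -0.01 over all probe sets. Of all probe sets 12%, 16.2% and 3.93% passed in these experiments. The share was 0.264% with Pdxk, 0.914% with Sim2, 1.76% with Olig2 and 5.73% in the late contrast. With Gabpa the list median was 0.24 against -0.01, and 0 of 23 genes passed in limma. Gadd45a is a member and not in this list, and it fell with Erg (-1.04), Runx1 (-1.58) and Aire (-0.48).

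Of the 14 measured FoxO factors and targets 5 rose and 0 fell with Aire, led by Pik3ip1 (0.59, limma adjusted p = 0.0112) and Txnip (0.48, adjusted p = 0.0382). With Erg 4 rose and 2 fell, led by Klf6 (0.74) and Foxo4 (0.63). In the other experiments that called Ccng2, 0 of 14 passed in Pdxk, with a list median of 0.31, and 2 rose in Sim2, Insr (1.5, limma adjusted p = 0.0353) and Txnip (1.22, adjusted p = 0.0327). With Runx1, of 13 measured, 4 rose and 4 fell, with Bcl2l11 at -0.85 and the insulin receptor substrate Irs2 at 0.61. In the late minus 24 hour contrast, where Ccng2 passed, 3 of 14 were higher, namely Pik3ip1 (0.59, limma adjusted p = 0.0117), the insulin receptor Insr (0.57, adjusted p = 0.0336) and Txnip (0.53, adjusted p = 0.00452). The list medians were 0.16, 0.10 and -0.06 with Aire, Erg and Runx1, 0.24 with Sim2 and 0.08 in the late contrast. The share of all probe sets called was 3.93% with Aire, 12% with Erg and 16.2% with Runx1. It was 0.264% with Pdxk, 0.914% with Sim2 and 5.73% in the late contrast.

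The CCR4-NOT subunits and BTG partners moved little: 1 of 13 rose with Aire, 1 rose and 1 fell with Erg, and of 11 measured with Runx1 0 passed in limma. Cnot8, a deadenylase subunit, rose with Aire (0.51, limma adjusted p = 0.0136) and Erg (0.32, adjusted p = 0.0389), and Cnot10 fell with Erg (-0.53, adjusted p = 0.00422). The list medians were -0.01, 0.05 and 0.06 with Aire, Erg and Runx1. With 12% of all probe sets called in Erg, the count there lies near the share of all.

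Among the RB family, E2F and G1 cyclin genes 2 rose and 2 fell of 23 with Aire, 4 rose and 2 fell of 23 with Erg and 2 rose and 3 fell of 20 with Runx1. The D cyclin Ccnd2 fell with Aire (-0.80, limma adjusted p = 0.0244), Erg (-0.85, adjusted p = 0.000557) and Runx1 (-0.93, adjusted p = 0.0106), also with Sim2 (-0.94, adjusted p = 0.0327), and rose with Nrip1 (2.33, adjusted p = 0.0257), the largest called change of the list. Ccnd1 fell with Runx1 (-1.27, adjusted p = 0.00138) and rose with Erg (0.43, adjusted p = 0.0347). E2f2 rose with Erg (0.84, adjusted p = 0.0114), and Rbl1, the RB relative p107, rose with Aire (0.48, adjusted p = 0.027). With Aire, Erg and Runx1 the list medians were 0.03, 0.06 and 0.04, and 3.93%, 12% and 16.2% of all probe sets passed.

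Of the cyclin G partners Ppp2r5a, a regulatory subunit of the phosphatase PP2A, rose with Runx1 (0.85, limma adjusted p = 0.0053) and Erg (0.48, adjusted p = 0.00968) and fell with Aire (-0.37, adjusted p = 0.0329). In Runx1 3 of 9 rose and 0 fell, in Erg 1 of 10 rose and in Aire 1 of 10 fell. Of all probe sets 16.2%, 12% and 3.93% passed there, so the Erg count lies near the share of all. Of the 9 GADD45 partners 3 rose and 1 fell with Runx1, 2 rose with Erg and 1 rose with Aire. The p38 kinase activator Map2k6 was in each of those counts (0.93, 0.77 and 0.67, limma adjusted p = 0.00132, 0.00594 and 0.00517). Of the 5 measured near relatives Tob2 rose with Runx1 (0.53) and the cyclin I gene Ccni with Aire (0.44), and none passed with Erg. The medians of these lists with Runx1 were 0.23, 0.18 and 0.00.

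Pluripotency markers fell in Runx1 and Erg, where Gadd45a fell most. With Erg 8 of 12 fell and 0 rose, including Nanog (-1.13), and with Runx1 8 of 12 fell and 0 rose, including Tdgf1 (-0.91). With Runx1 1 of 8 primitive endoderm markers rose, Amn (2.98), and 1 fell, Sox7 (-0.78), and of 5 mesoderm markers Eomes rose (1.74) and Kdr fell (-0.41). Of 6 trophoblast markers 2 rose there, Krt7 (1.65) and Tfap2c (0.79), of 7 neural markers 2 rose and 2 fell, and the fibroblast marker Lum fell (-0.33). With Erg 1 of 8 fibroblast markers rose, Thy1 (2.11), with the mesoderm marker Kdr (1.48). With Aire 2 of 7 neural markers rose and 1 fell, and Sox7 of the primitive endoderm list fell (-0.70). With Aire 2 of 12 pluripotency markers rose and 0 fell, and in Sim2, Pdxk and the late contrast 0 of them passed in limma. Of all probe sets 12% passed with Erg, 16.2% with Runx1 and 3.93% with Aire. The fibroblast counts of 1 of 8 lie near the shares with Erg and Runx1. The part of the markers in the results for the members was not tested. Fewer cells of a type and less RNA per cell cannot be told apart in these bulk samples.

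Promoter windows of RefSeq (250 bases before to 50 after the start, GRCm38.p6) were found for 8 of the 9 members, not for Rb1, and were searched on both strands for the FoxO site GTAAACA, the hypoxia element ACGTG, the E-box CACGTG, which contains ACGTG, the E2F sites TTTCCCGC and TTTGGCGC and the cyclic AMP response element TGACGTCA. Stretches of 30 bases around a match are shown for every member that held one, whatever its response to induction. They read 5′ to 3′ along the gene, with the matched letters in capitals.
Btg1, GTAAACA on the opposite strand, chr10:96616786-96616815 on the plus strand: gggggtttattTGTTTACaagcagattacg
Btg2, TGACGTCA, chr1:134079303-134079332 on the minus strand: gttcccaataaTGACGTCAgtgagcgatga
Tob1, ACGTG, chr11:94211251-94211280 on the plus strand: gcggccgtctggACGTGggcaggcgggact
Gadd45b, CACGTG, chr10:80929894-80929923 on the plus strand: agccctgaccccCACGTGgggccgccggag
Gadd45g, CACGTG, chr13:51846521-51846550 on the plus strand: cgcacccctcccCACGTGgccttctggcac

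Over all 32851 promoter windows 3.65% held GTAAACA, 19.6% ACGTG, 7.15% CACGTG and 1.79% TGACGTCA. The members with each were Btg1 for GTAAACA, Tob1, Gadd45b and Gadd45g for ACGTG, the latter pair for CACGTG and Btg2 for TGACGTCA. The windows of Ccng1, Ccng2 and Gadd45a held none of these letters, and no member held TTTCCCGC (1.07% of all) or TTTGGCGC (0.514%). A match describes letters, and no binding was measured here.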

How the data were processed

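The authors hybridised 120 arrays and deposited log2 values. Per the submitters' processing notes these are RMA values (affy), a summary over probes after background correction and quantile normalisation. Versions are not given in the sources used here. The array medians show that each experiment was scaled apart. Arrays were grouped by the gene, state and hours in their titles. Probe sets were named through the platform annotation: on the Mouse 430_2 array 34958 map to a single gene, 932 to several and 9211 to no gene, and on the Mouse 430A_2 array the numbers are 20393, 691 and 1606.

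In R 4.3.3, limma 3.58.1 fitted state and clone (as a block) within every experiment, and Benjamini-Hochberg adjustment ran over all probe sets, called at an adjusted p under 0.05. Fits over experiments used 1 mean difference per experiment or, for the F-test, the clone differences, on the 19 Mouse 430_2 experiments. Of these probe sets 1 lacks values in Sim2 and was left out there and in the fits over experiments, which leaves 45100. Pairing follows the series design, which profiles the same clones in both states. Deviations from the group means of same-numbered arrays correlated above 0.1 in 54 of 60 pairs, and in all 3 pairs of 15 of 20 experiments (median r = 0.376). The p-values reflect clonal spread within 1 parental line, and the 3 arrays per state limit the precision. No arrays were identical.

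Values of every array are given for the called pairs of a member and an experiment with the largest change, up to 3 per member, on the reference probe set, with the called second probe set of Btg2 added after its values were seen. Of a pathway list the 2 genes with the largest change past the threshold in Erg, Runx1 and Aire are named, with some further members, and the 3 genes with the most similar profile among those brighter than the median for each member. Other pairs were picked once their values were known. The members and lists were chosen with earlier results of these data known.

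The alternatives were no block, the methods' t-test, a Cyber-t style regularised test (prior weight 10), eBayes with trend and robust, 1 fit over all Mouse 430_2 arrays, probe sets in the dimmer 50% left out, a second quantile normalisation, each clone left out, and Sim2 with crossed numbers. In data simulated from the Erg arrays with 200 of 45100 probe sets changed, the fit of 1 experiment found 85% of changes of 0.5 and 100% of changes of 1 in log2. No other single experiment was simulated, so these shares hold for the spread of Erg and not for experiments with more spread. In data simulated for the late contrast 91% and 100% were found, and for the F-test with 1 experiment shifted 3% and 82%. Figures were drawn with matplotlib 3.10.9 in Python 3.11.15.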

Additional observations from a re-analysis of the deposited data

Results flagged for a closer look

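The response of 6 member probe sets differed between experiments of 39 or 48 hours and those of 24 hours by limma: Ccng2 by 0.77 and 0.74 (log2) for its reference and second probe set, Btg1 by 0.63 and 0.48, Rb1 by 0.54 and Btg2 by 0.31.

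The response of 12 member probe sets differed between the 19 experiments by the moderated F-test. The F values were 5.75, 4.24 and 2.88 for the 3 Ccng1 probe sets, 2.72 for the second Ccng2 probe set, 6.0 and 3.0 for the bright Btg1 probe sets, 2.76 for Tob1, 8.16 for Gadd45a, 4.80 and 3.26 for Gadd45b, 3.22 for Gadd45g and 7.04 for Rb1.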

How the results depend on the processing

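Against 32 member calls, 28 higher and 4 lower, the count was 12 (10 and 2) with no replicate block, that is, without pairing the clones, and 4 (2 and 2) by the methods' t-test. One fit over all Mouse 430_2 arrays gave 50, with 9 lower, and the Cyber-t kind gave 2 lower. Leaving out each replicate number gave 24 to 41 calls, 21 to 35 higher and 2 to 6 lower. With crossed Sim2 numbers, taken from the clone order in the study's table, the count was 28. The sign differed on the other Rb1 probe set in Erg (0.0927) and Sim2 (-0.26). The count for the mean response, 0, became 2 with Runx1, 6 with a random experiment block and 1 without dim probe sets, and stayed at 0 without each replicate number or, in alternatives chosen after seeing the data, each experiment and in the 14 experiments at 24 hours. The count of 12 probe sets that differed between experiments was 0 with no replicate block and 2 to 12 without each replicate number, and 13 without Gabpa, an alternative also chosen after seeing the data. The late count of 6 was 0 in the experiments of silent genes, 3 to 5 without each replicate number and 3 to 7 without each experiment, with 3 without Sim2. The causes were not tested.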
